A study of Mus musculus with 4 samples.

Results

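The genes examined here are 10 factors and markers of the mesenchymal transition, namely the transcription factors Snai1, Snai2, Twist1, Twist2, Zeb1 and Zeb2 and the markers Cdh2, Vim, Fn1 and S100a4. They were chosen by gene name from the array design, which places 23 probes on them and carries 37074 gene and feature names in all. RNA came from tumours of 4T1, a mouse mammary carcinoma line implanted in BALB/C mice that received no treatment. Tumour cells were sorted with the ALDEFLUOR kit, in which aldehyde dehydrogenase (ALDH) activity makes cells fluorescent, into ALDH-low and ALDH-high cells at zeitgeber times ZT0 and ZT12, counted from lights on. Each of the 4 combinations (ZT0 ALDH-low, ZT0 ALDH-high, ZT12 ALDH-low and ZT12 ALDH-high) was hybridised to 1 single-colour Agilent array, and replicates are lacking throughout. The animals' age, and how many mice gave each fraction, are not given in the sources used here.

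In the epithelial to mesenchymal transition, carcinoma cells loosen their junctions and take on features of migratory mesenchymal cells. The zinc finger proteins of the Snail and ZEB families bind E-box sequences in the promoters of epithelial genes such as Cdh1, which encodes E-cadherin, and repress them, while the helix-loop-helix Twist proteins act beside them. N-cadherin (Cdh2), the intermediate filament vimentin (Vim), the matrix protein fibronectin (Fn1) and the calcium-binding protein S100A4 are widely used markers of the mesenchymal state. Several of these genes are also active outside tumour cells: leukocytes and fibroblasts express Vim, S100a4 and Zeb2, and macrophages and fibroblasts express Fn1.

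The values rest on the oligonucleotides that capture each transcript, so stretches of some probes are given 5′ to 3′ in lower case. They are main probes, or the only probe for Snai2 and Twist2, which did not pass the filter. The main probes of Zeb1, Cdh2 and Fn1 are not printed. For the genes below, the first 30 of the 60 bases are shown, with the probe's mm9 position.
Snai1 probe, chr2:167368073-167368132, plus strand: gtttcacagcagtttaactgtctcagaagg
Snai2 probe, chr16:14709361-14709420, plus strand: gtgaggtacggttaatagccacgcctatat
Twist1 probe, chr12:34644411-34644470, plus strand: atggtaacaatcagaggaattttaacacct
Twist2 probe, chr1:93744519-93744577, plus strand: ttattgagatattttaccagctaagtgact
Zeb2 probe, chr2:44842774-44842833, minus strand: ctgtattttcgactgaaaattccactttct
Vim probe, chr2:13504232-13504291, plus strand: gcagtttttcaggagcgcaagatagatttg
S100a4 probe, chr3:90409842-90409902, plus strand: agtgttggggtgtagtttgccagtggggga

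Fn1 was covered by 4 probes, and 2 of them are placed across an intron, so their mm9 spans exceed their 60 bases. They are shown whole because they gave the smallest and the largest Fn1 differences at ZT12 described further on.
Fn1 probe A_51_P100856, chr1:71637422-71639659, minus strand: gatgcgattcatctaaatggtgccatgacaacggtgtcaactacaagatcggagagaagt
Fn1 probe A_55_P2743309, chr1:71694694-71695800, minus strand: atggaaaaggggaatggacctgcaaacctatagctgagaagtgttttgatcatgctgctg

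Levels are log2 processed signals minus the log2 75th percentile of the array, so 0 is the 75th percentile and 1 unit is 2-fold. A level belongs to its probe and is compared between arrays only. The 75th percentile itself lay between 156.3 and 458.8 signal units, between 55.8% and 60.6% of spots were well above background, and the median SD of replicate spots within an array was at most 0.0448 log2 units. Slide 1 carried the ZT0 pair and slide 2 the ZT12 pair. ZT0 ALDH-low and ZT12 ALDH-high lay at position 1_1 of their slides, and ZT0 ALDH-high and ZT12 ALDH-low at position 1_2. Position 1_1 gave spike-in slopes of 0.873 and 0.789, outside the range the software accepts, and position 1_2 gave 0.956 and 0.944, inside it. Time and slide cannot be told apart here, and neither can array position and a difference of the ALDH effect between times.

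The cells were labelled as 4T1 cells, and of 8 epithelial tumour cell markers 7 were well above background on all 4 arrays. So were all 4 pan-leukocyte markers and all 8 neutrophil markers. Ptprc, the leukocyte antigen CD45, stood at 4.10 and 7.19 in ALDH-low and ALDH-high cells at ZT0, and at 6.63 and 4.29 at ZT12. RNA of blood cells was thus present in every fraction, and in such mixtures fewer cells of a type and less RNA per cell cannot be told apart.

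Of the 10 genes, 8 had a probe well above background on at least 2 arrays and entered the test across all features, and 7 had one on all 4 arrays. Of the 23 probes, 15 were well above background on all 4 arrays, 3 on some and 5 on none. The genes without a usable signal were Snai2 and Twist2. Snai2, which encodes the Snail relative Slug, gave signals of 7.61, 6.75, 3.89 and 3.78 on ZT0 ALDH-low, ZT0 ALDH-high, ZT12 ALDH-low and ZT12 ALDH-high, not well above background on any of them. Twist2 gave 2.95, 9.46, 3.17 and 3.08 in the same order, likewise not well above background. The lowest signal that was well above background lay between 13.4 and 15.1 on these arrays, so no differences are given for either gene.

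**Figure D1:**
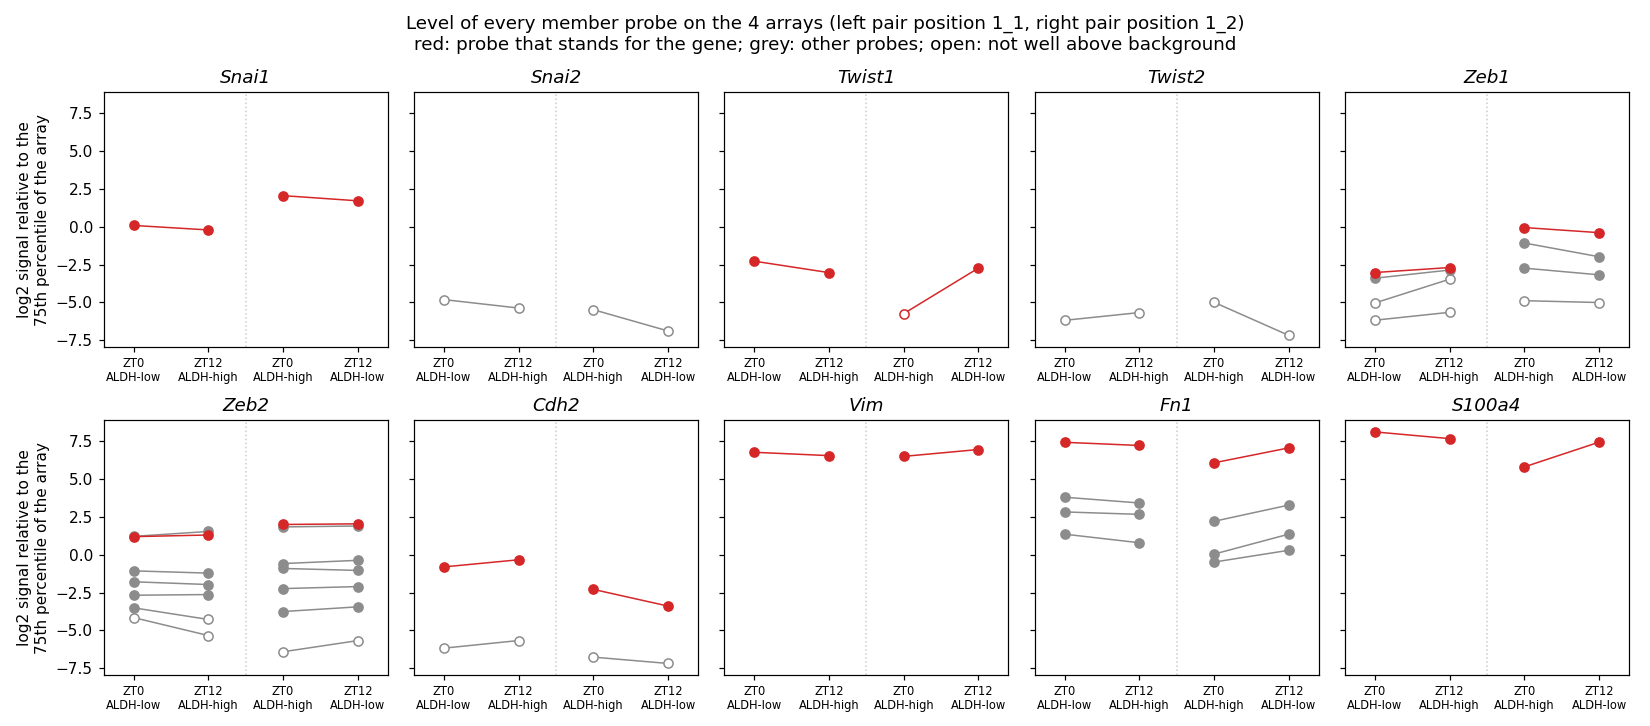
Log2 signal of each of the 23 probes relative to the 75th percentile of its array (vertical axis) on the 4 arrays (horizontal axis, the left pair at position 1_1 and the right pair at position 1_2), 1 panel a gene. Red points are the probe that stands for the gene, grey points other probes, and open points were not well above background. Snai1 and the red Zeb1 probe are higher on both arrays of position 1_2 than on both of position 1_1, and Cdh2 is lower.

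Snai1, the gene of the Snail protein itself, had levels of 0.09 in ALDH-low and 2.05 in ALDH-high cells at ZT0, and of 1.71 and -0.21 at ZT12. The arrays thus formed a high pair, ZT0 ALDH-high and ZT12 ALDH-low, and a low pair. The ALDH-high minus ALDH-low difference was 1.97 at ZT0 and -1.92 at ZT12.

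Zeb1 was measured with 4 probes, and its main probe behaved like Snai1. Its level was -3.02 in ALDH-low and -0.05 in ALDH-high cells at ZT0, and -0.39 and -2.69 at ZT12. The same 2 arrays were high, and the ALDH difference was 2.97 at ZT0 and -2.30 at ZT12. The second probe, A_55_P2588577, was well above background on those 2 arrays alone, where it had levels of -1.08 and -1.98. It was at least 7.02-fold higher in ALDH-high cells at ZT0 and at least 2.68-fold lower in them at ZT12. These bounds set the brighter array against the lowest signal that was well above background on the dimmer one. The third probe, A_55_P2713355, differed little (0.66 at ZT0 and 0.32 at ZT12) and did not share the sign of the main probe at ZT12. Its signals, between 20.3 and 50.8, were not far above the lowest that were well above background (13.4 to 15.1). The main probe was also near that limit on its low arrays, with signals of 26.3 on ZT0 ALDH-low and 24.2 on ZT12 ALDH-high. The fourth probe was dim on every array.

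Zeb2 had the same high pair of arrays with smaller differences. Its main probe gave 1.2 in ALDH-low and 2.0 in ALDH-high cells at ZT0, and 2.04 and 1.31 at ZT12. Its ALDH difference was 0.80 at ZT0 and -0.74 at ZT12, below 2-fold at both times. For this probe it was 1.29 and -1.61 with median scaling, and 0.43 and -0.37 with normexp and quantile normalization. Under quantile normalization alone another probe, A_51_P121206, had the highest mean level and stood for the gene, with 0.28 and -0.02. Of the 6 Zeb2 probes measured on both ZT0 arrays 5 were higher in ALDH-high cells, with a range from -0.25 to 0.88 over the 6 (median 0.55). At ZT12 the 5 measured probes were all lower in ALDH-high cells, between -0.93 and -0.36. The probes of a gene share their RNA and are no replicates of a condition.

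Twist1, a helix-loop-helix factor of mesoderm, was well above background on 3 arrays. Its level was -2.27 in ALDH-low cells at ZT0, and -2.73 and -3.03 in ALDH-low and ALDH-high cells at ZT12. On ZT0 ALDH-high it was not well above background, with a signal of 5.64, and it was at least 4.65-fold lower there than on ZT0 ALDH-low. That bound holds for the 75th percentile scaling alone. The log2 difference with the dim array included was -3.46, against -2.98 with median scaling and -0.65 with normexp and quantile normalization. At ZT12 the ALDH difference was -0.30, but -1.17 with median scaling, -1.11 with quantile normalization and -1.13 in the authors' series table. Twist1 was therefore the only 1 of the 4 measured factors that was lower in ALDH-high cells at ZT0.

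Cdh2, the N-cadherin gene, ran opposite to Snai1 and Zeb1. Its level was -0.80 in ALDH-low and -2.29 in ALDH-high cells at ZT0, and -3.39 and -0.33 at ZT12. The arrays high for Snai1 were the low ones for Cdh2. Its ALDH difference was -1.49 at ZT0 and 3.06 at ZT12, the highest value among the members at ZT12, though 1.52 with normexp and quantile normalization. The other Cdh2 probe was not well above background on any array.

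Vim had the smallest span over the arrays among the 8 genes tested, under the 75th percentile scaling. It stood at 6.77 and 6.50 in ALDH-low and ALDH-high cells at ZT0 and at 6.95 and 6.55 at ZT12, a span of 0.45 log2 units. Its ALDH difference was -0.27 at ZT0, which became 0.21 when arrays were scaled on their medians and 0.11 with normexp and quantile normalization, and -0.40 at ZT12. The ZT12 difference was -1.28 with median scaling, -0.88 with normexp and quantile normalization, -0.71 with quantile normalization and -0.68 in the authors' series table, so the small span depends on the scaling. The span of the main probe was 0.85 for Zeb2 and at least 1.35 for the other 6 genes.

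Fn1 was low on a single array. The main probe read 7.43 in ALDH-low and 6.07 in ALDH-high cells at ZT0, and 7.06 and 7.22 at ZT12. The ALDH difference at ZT0 was -1.35, and all 4 probes were at least 2-fold lower in ALDH-high cells there (-2.78 to -1.35, median -1.72). At ZT12 the main probe differed by 0.16, a sign that turned under median scaling (-0.71), quantile normalization (-0.23), normexp with quantile normalization (-0.33) and in the authors' series table (-0.22). The intron-spanning probes printed above differed from each other at ZT12, with 0.14 for A_51_P100856 and 1.31 for A_55_P2743309. The latter had levels of 2.83, 0.04, 1.36 and 2.67 on ZT0 ALDH-low, ZT0 ALDH-high, ZT12 ALDH-low and ZT12 ALDH-high. Its level was thus lower on ZT12 ALDH-low as well as on ZT0 ALDH-high.

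S100a4 followed the main Fn1 probe. It read 8.11 in ALDH-low and 5.80 in ALDH-high cells at ZT0, and 7.44 and 7.67 at ZT12, with ZT0 ALDH-high as the low array. The ALDH difference was -2.31 at ZT0. At ZT12 it was 0.23, and turned negative under median scaling (-0.64), quantile normalization (-0.32), normexp with quantile normalization (-0.20) and in the authors' series table (-0.30).

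**Figure D2:**
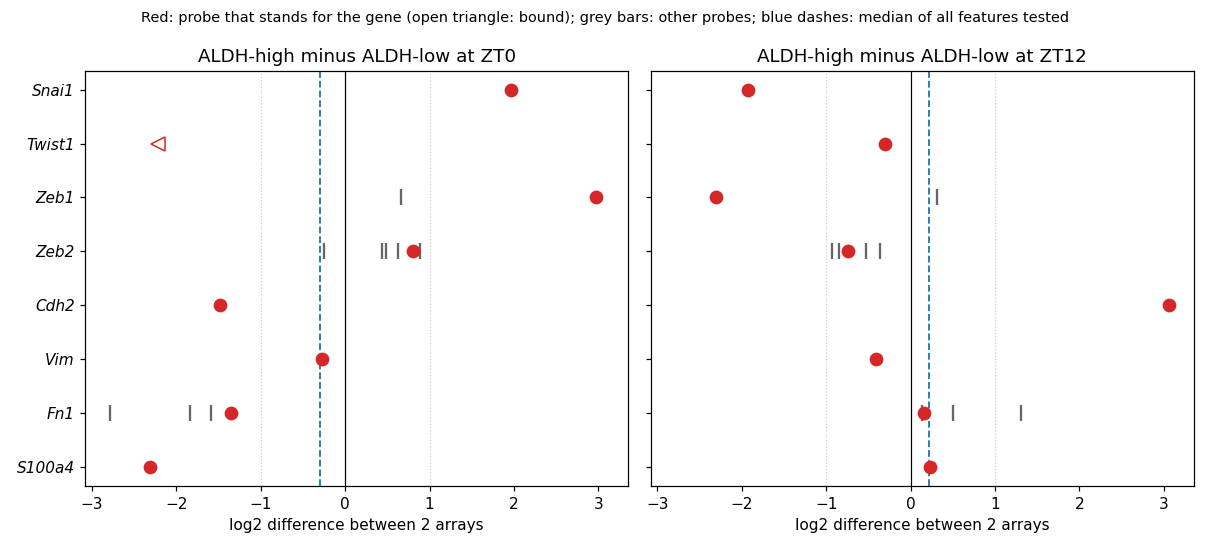
Log2 difference between the ALDH-high and the ALDH-low array (horizontal axis) at ZT0 (left) and ZT12 (right) for the 8 genes that passed the filter (vertical axis); red circles are the main probe, the open triangle is the bound for Twist1, grey bars are other probes measured on both arrays, dotted lines mark 2-fold and blue dashes the median of all features tested. Snai1 lies at 1.97 and -1.92, Zeb1 at 2.97 and -2.30, and Cdh2 on the opposite sides at -1.49 and 3.06; the Fn1 and S100a4 points near 0 at ZT12 change sign with other scalings.

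At ZT0 members differed in both directions. Of 7 members measured on both arrays, the factors Snai1 and Zeb1 were at least 2-fold higher in ALDH-high cells, and the markers Cdh2, Fn1 and S100a4 at least 2-fold lower. The factor Twist1, for which only a bound could be given, was lower too, and factors were not tested against markers. Over all features measured on both arrays, 20% were higher and 29.2% lower by 2-fold or more, so differences of this size were common. The median was -0.27 over the 7 members (0.21 with median scaling and 0.11 with normexp and quantile normalization) and -0.30 over 21136 features. At ZT12, 1 of 8 members, Cdh2, was at least 2-fold higher and 2, Snai1 and Zeb1, at least 2-fold lower, against 28.9% and 17.9% of 19778 features. The medians were -0.35 for the members and 0.22 for the features. With each array scaled on its median, the median difference of all features tested moved from -0.32 to 0.17 at ZT0 and from 0.30 to -0.57 at ZT12, and single differences move by the same amount. Snai1, Zeb1, Zeb2 and Cdh2 kept the signs given above at both times under every scaling, filter and probe rule tried, and so did Fn1 and S100a4 at ZT0.

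No member passed the test across all features. The additive limma fit, with terms for ALDH arm and time, has 1 residual degree of freedom. Its standard error was 1.54 log2 units for each gene, since eBayes pooled the variance over all features. The fit assumes the same ALDH difference at both times, and its residual is the departure from that. Signs were opposite between ZT0 and ZT12 for 84.8% of 19298 genes well above background on all 4 arrays. Such reversals cancel in the mean differences and enlarge the standard error. At an adjusted p of 0.05 the ALDH term called 0 of 23520 features (0%), and 7 had an unadjusted p under 0.05. The mean ALDH difference over both times was 0.02 for Snai1, 0.33 for Zeb1, 0.03 for Zeb2, 0.79 for Cdh2, -0.34 for Vim, -0.60 for Fn1 and -1.04 for S100a4. Twist1 had the largest, -1.88, with a limma unadjusted p of 0.222 and an adjusted p that rounds to 1. Its value includes the array on which it was not well above background.

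The same 4 arrays give the time differences, which therefore share their arrays with the ALDH differences. In ALDH-low cells, ZT12 minus ZT0 was 1.63 for Snai1 and 2.63 for Zeb1, the 2 of 8 members at least 2-fold higher, and -2.59 for Cdh2, the 1 at least 2-fold lower. The shares over 20670 features were 17.5% and 28.5%. In ALDH-high cells it was -2.26 for Snai1 and -2.64 for Zeb1, at least 2-fold lower, and 1.96 for Cdh2, 1.87 for S100a4 and 1.14 for Fn1, at least 2-fold higher. Twist1 was at least 2.75-fold higher at ZT12 there, under the 75th percentile scaling alone. Its log2 difference with the dim array included was 2.71, against 2.17 with median scaling and 0.45 with normexp and quantile normalization. Of 7 members measured on both ALDH-high arrays, 3 were thus at least 2-fold higher and 2 lower, against 31.7% and 20.2% of 20332 features. Vim differed by 0.18 in ALDH-low cells (1.01 with median scaling) and by 0.05 in ALDH-high cells, and the latter turned negative with median scaling (-0.48) and with normexp and quantile normalization (-0.41). In the additive fit 0 of 23520 features (0%) were called for time, 2 had an unadjusted p under 0.05, and the limma adjusted p of every member rounds to 1.

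Within an array position, where ALDH arm and time change together, Snai1, Zeb1, Zeb2 and Cdh2 differed less than between the arrays of a slide, and the other members did not all do so. At position 1_1, ZT12 ALDH-high minus ZT0 ALDH-low was -0.30 for Snai1, 0.33 for Zeb1, 0.11 for Zeb2, 0.47 for Cdh2, -0.22 for Vim, -0.21 for Fn1, -0.44 for S100a4 and -0.76 for Twist1. Of 8 members, 0 were at least 2-fold apart, where 2.84% of 21151 features were at least 2-fold higher and 1.49% lower. At position 1_2, ZT0 ALDH-high minus ZT12 ALDH-low was 0.34 for both Snai1 and Zeb1 and -0.04 for Zeb2. It was 1.1 for Cdh2 and -1.63 for S100a4, each the 1 of 7 members past 2-fold in its direction, while Fn1 gave -0.99 and Vim -0.45. Twist1 was at least 3.39-fold lower on ZT0 ALDH-high there. Over 21061 features 10.1% were at least 2-fold higher and 5.55% lower. For Snai1, Zeb1 and Cdh2 the arrays of a position were therefore closer to each other than either was to the array of the same slide. With position as a block in place of time, limma called 0 features for ALDH (smallest adjusted p 0.608, with 1915 at an unadjusted p under 0.05).

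**Figure D3:**
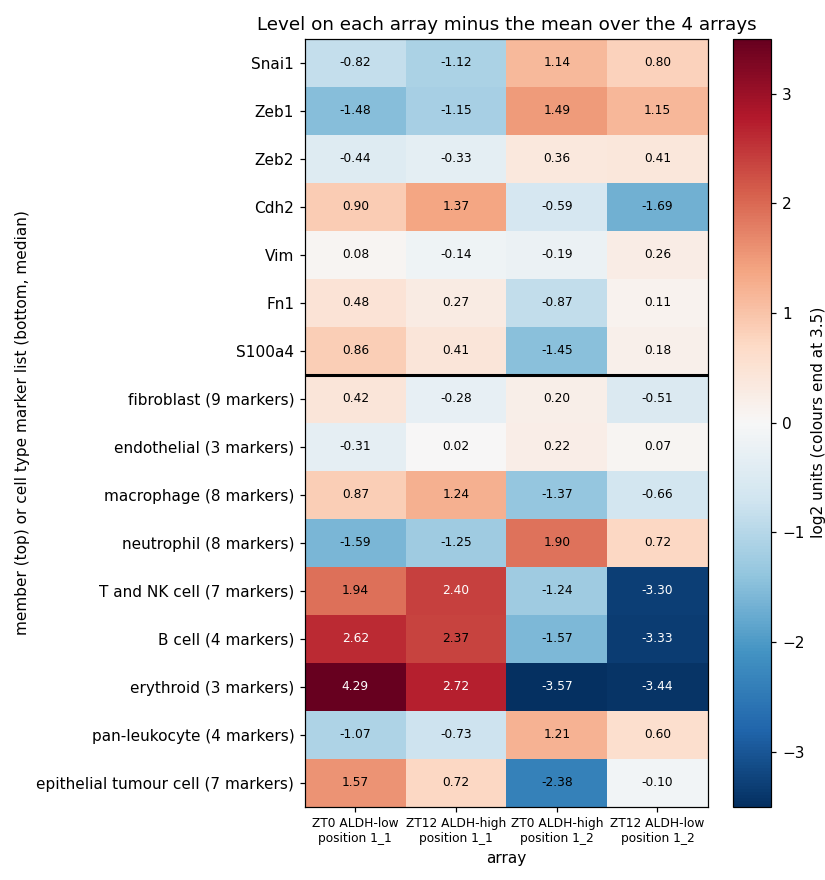
Level on each array (columns, grouped by array position) minus the mean over the 4 arrays, in log2 units, for the 7 members well above background on every array (top) and for the median of each cell type marker list (bottom, with the number of markers well above background on every array). Snai1 and Zeb1 share their signs with the neutrophil and pan-leukocyte lists on each array, and Cdh2 shares its signs with the macrophage, T and NK cell, B cell, erythroid and epithelial tumour cell lists.

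Markers of other cell types moved along with these genes, and their part in the differences was not tested. The pan-leukocyte list (4 of 4 genes measured, summed linear level in multiples of the 75th percentile) was 97.8 in ALDH-low and 451 in ALDH-high cells at ZT0, and 295 and 130.1 at ZT12. The median ALDH difference of its genes was 2.28 for ZT0 and -1.33 for ZT12, the signs of Snai1, Zeb1 and Zeb2. The neutrophil list (8 of 8 measured) had medians of 3.55 and -2.25. Ly6g, a neutrophil surface antigen, had levels of 0.02, 4.99, 3.03 and -0.03 on ZT0 ALDH-low, ZT0 ALDH-high, ZT12 ALDH-low and ZT12 ALDH-high. Its ALDH difference at ZT0, 4.97, was the highest of the list. Of the 8 genes, 6 were at least 2-fold higher in ALDH-high cells at ZT0, and 5 at least 2-fold lower at ZT12. S100a8 (0.35 at ZT0 and 0.57 at ZT12) and S100a9 (-0.26 and 1.27) did not share the signs of Snai1 and Zeb1. The summed level of the list was 1559, 2749, 1689 and 2240 in the same order of arrays, so that ZT12 ALDH-high ranked second.

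The lists with the signs of Cdh2, negative at ZT0 and positive at ZT12, included those of epithelial tumour cells (median ALDH difference -4.07 over 7 genes measured on both ZT0 arrays and 0.68 over 8 at ZT12) and fibroblasts (-0.43 over 9 and 0.55 over 10). The others were those of macrophages (-2.32 over 8 and 1.90 over 8), T and NK cells (-3.37 over 8 and 5.75 over 7), B cells (-4.19 over 4 and 5.61 over 4) and red cells (-7.85 over 3 and 6.29 over 4). Fap (1.90 at ZT0 and -1.61 at ZT12) and Dcn (0.37 and -0.81) of the fibroblast list had the reverse signs. Pdgfra (-0.97 and -1.51) and Lum (-0.12 and -0.18) were negative at both times. The macrophage markers Csf1r (0.61 and -0.27) and Cd68 (0.36 and -0.08) were also reversed. Cd3d, a T cell marker, was positive at both times (1.90 and 1.03). The other genes of these lists well above background on all 4 arrays had the signs of Cdh2. The summed macrophage level was 213.4 and 153.5 in ALDH-low and ALDH-high cells at ZT0, and 147.6 and 262.5 at ZT12. For fibroblasts, 10 of 10 markers were measured with summed levels of 31.9, 23.3, 15.01 and 26.4 in that order. The endothelial markers Cdh5, Tek, Tie1 and Emcn were not well above background, leaving 3 of 7. Epithelial tumour cell markers (8 of 8 measured) had summed levels of 194, 11.7, 85.5 and 93.5 on ZT0 ALDH-low, ZT0 ALDH-high, ZT12 ALDH-low and ZT12 ALDH-high. ZT0 ALDH-high, the lowest array for S100a4 and Fn1, was thus also the lowest for the epithelial markers.

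By the distance between centred profiles over the 4 arrays, which has few points and compares 12739 named genes with each member, the nearest list was pan-leukocyte for Snai1 (0.51 log2 units) and neutrophil for Zeb1 (0.61). The median of the 3 endothelial markers was nearest to Zeb2 (0.53) and Vim (0.62). That median varied little over the arrays, between -0.31 and 0.22, so any gene with a small span lies near it. Its genes also disagreed. ALDH differences at ZT0 and ZT12 were -1.83 and 2.04 for Kdr, 0.54 and -0.04 for Pecam1, and 0.85 and -0.24 for Vwf. Macrophage markers were nearest to Cdh2 (1.30) and S100a4 (1.18, with epithelial tumour cell markers at 1.24). For Fn1, fibroblast (1.36), endothelial (1.38) and macrophage markers (1.39) were about equally near. The single genes nearest to each member were Tanc2 and Gt(ROSA)26Sor for Snai1 (0.05 and 0.07), Hspa2 and Gng12 for Zeb1 (0.05 and 0.08), and Pank2 and Ccnjl for Zeb2 (0.04 and 0.05). They were Lrrc74b and Car3 for Cdh2 (0.10 and 0.12), Zfp568 and Bicd2 for Vim (0.0089 and 0.04), Inhbb and Galk2 for Fn1 (0.09 and 0.09), and Kif3a and Nudcd1 for S100a4 (0.05 and 0.06).

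The other genes of the pathway were taken by role from 5 lists. Their counts stand beside shares over all features of 20% at least 2-fold higher and 29.2% lower at ZT0, and of 28.9% and 17.9% at ZT12. Of 8 TGF-beta ligands, receptors and Smads, all measured, 2 were past 2-fold upward in ALDH-high cells at ZT0 and 2 downward (median 0.56). These counts are near the shares over all features. At ZT12 they were 1 and 3 (median -0.91). The receptor Tgfbr2, which passes the TGF-beta signal that can start the transition, gave 0.68 and -0.91, and Smad4, the shared partner of the signalling Smads, 1.42 and -1.76. These 2 genes had the signs of Snai1 and Zeb1, as did Tgfbr1, Smad2 and Smad3. The 2 downward at ZT0 were ligands with the reverse signs, Tgfb2 (-2.01 and 2.85) and Tgfb3 (-2.83 and 0.31). Tgfb1 was positive at both times (0.44 and 0.04). Reversals between ZT0 and ZT12 were common, at 84.8% of 19298 genes, and a link between these genes was not tested.

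Of 11 other transition factors, 8 were measured (Snai3, Gsc and Klf8 were at background), and at ZT0 5 of them were at least 2-fold lower in ALDH-high cells and 0 higher (median -2.17), where 29.2% and 20% of all features were. At ZT12 1 was higher and 0 lower (median 0.38). Hmga2, a chromatin protein that induces Snail in other systems, had levels of 3.03, -0.01, 1.73 and 2.21 on ZT0 ALDH-low, ZT0 ALDH-high, ZT12 ALDH-low and ZT12 ALDH-high, and differed by -3.04 and 0.48. Tcf4, a helix-loop-helix factor, differed by -1.75 and 0.63. ZT0 ALDH-high was the lowest array for both, as it was for S100a4 and Fn1.

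Of 12 epithelial junction and keratin genes, a class that the Snail and ZEB repressors act upon, 11 were measured (Ocln at background). Among the 10 measured on both ZT0 arrays 7 were at least 2-fold lower in ALDH-high cells and 0 higher (median -2.79), against 29.2% and 20% of all features. Of those 7, all but Dsp are also in the epithelial tumour cell list above, with the same probes. The counts of these lists are therefore not separate results, and repression was not tested. The other 3, named after their values were seen, were Crb3 (-0.65), Tjp3 (0.56) and Llgl2 (0.65). At ZT12 1 of 10 was higher and 1 lower (median 0.22), against 28.9% and 17.9%. The keratins Krt18 and Krt8 gave -4.22 and -4.07 at ZT0, and 0.02 and 0.07 at ZT12. Cdh1, named here for its role as the classical target, read 1.23 in ALDH-low and 0.15 in ALDH-high cells at ZT0, and 0.39 and 1.05 at ZT12. It differed by -1.08 and 0.66, so that the arrays high for Snai1 and Zeb1 were the lower ones for Cdh1. Epcam, the 1 higher at ZT12, had the signs of Cdh1 (-3.57 and 1.08). Llgl2, the 1 lower at ZT12, had those of Snai1 and Zeb1 (0.65 and -1.29). Dsp was lower in ALDH-high cells at both times (-2.64 and -0.59). Signs were opposite between ZT0 and ZT12 for 84.8% of 19298 genes.

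Among the factors that oppose the transition, 5 of 7 were measured (Ovol1 and Elf3 were at background). At ZT0 1 of 5 was past 2-fold upward and 2 downward (median -0.35), and 0 of 3 at ZT12. The 1 upward was Grhl1 (2.17), and the 2 downward were Grhl2 and Esrp1 (-1.07). Grhl1 and Esrp2 were not well above background on ZT12 ALDH-high and were not counted at ZT12. Grhl1 had a level of -1.62 on ZT12 ALDH-low and, dim, of -3.97 on ZT12 ALDH-high. Ovol2, a zinc finger repressor of Zeb1, gave 0.22 and 0.29, and Grhl2, a guardian of epithelial junctions, -1.93 and 0.78. Of 17 matrix, protease and cytoskeletal genes, all measured on some arrays, 3 of 16 were past 2-fold upward at ZT0 and 6 downward (median -0.18), against 20% and 29.2% of all features. At ZT12 the counts were 1 and 4 of 15 (median 0.16), against 28.9% and 17.9%. Spp1, which encodes osteopontin, gave -1.89 and 0.47, while the hyaluronan receptor Cd44 gave 2.06 and -1.47. The medians over all features beside which these stand are -0.30 at ZT0 and 0.22 at ZT12.

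Promoters were searched because Snail and ZEB proteins bind the E-box CACCTG. The search used 9 start sites of 6 of the 10 genes, taken from the RefSeq tables of GRCm38.p6. Zeb1, Cdh2, Fn1 and Snai2 were not searched. Both strands of the 250 bases before each start site were searched. Several of the 9 sites belong to Zeb2, and some Zeb2 windows overlap, so the 9 are not separate promoters. The letters CACCTG were found at 1 of the 9, that of Snai1, and in 17.2% of 32851 such windows. The clock E-box CACGTG was found at 0 of the 9 and in 6.02% of the 32851 windows. The general form CANNTG, which contains both, was found at 1 of the 9 (the same Snai1 site) and in 66.2%. The Snai1 window is shown with the match in capitals, beside that of Vim, the member with the smallest span under the 75th percentile scaling.
Snai1, chr2:167537945-167538194, plus strand: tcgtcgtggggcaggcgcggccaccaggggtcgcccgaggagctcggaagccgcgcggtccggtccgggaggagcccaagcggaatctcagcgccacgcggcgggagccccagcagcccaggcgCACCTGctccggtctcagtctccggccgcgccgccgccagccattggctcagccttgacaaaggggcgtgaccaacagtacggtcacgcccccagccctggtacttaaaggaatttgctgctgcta
Vim, chr2:13574061-13574310, plus strand: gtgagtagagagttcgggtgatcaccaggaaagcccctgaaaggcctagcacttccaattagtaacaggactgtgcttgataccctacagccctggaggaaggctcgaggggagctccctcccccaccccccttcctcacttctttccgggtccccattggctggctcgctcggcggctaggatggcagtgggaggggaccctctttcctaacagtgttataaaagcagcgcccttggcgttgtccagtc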

How the data were processed

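Per the file headers, Agilent Feature Extraction 10.7.1.1 read the scans on a design placed on mm9; the submitters' processing notes name version 9.5.1.1. The authors deposited each spot's processed signal, a linear intensity after spatial and multiplicative detrending by that software, per the file headers. The series table deposited by the authors also holds intensity values, quantile normalized as its equal quartiles show. The deposited flags (other values, 0 or 1) gave detection.

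Control and outlier spots were left out. Replicate spots were averaged in log2, and the 75th percentile of the array was subtracted. A probe had to be well above background on 2 or more arrays (34573 of 56605 passed), and the probe with the highest mean level stood for each of 23520 features. ALDH arm and time were fitted together with lmFit and eBayes of limma 3.58.1 under R 4.3.3, with Benjamini-Hochberg adjusted two-sided p-values and a threshold of 0.05, after a test on simulated data. Comparisons of 1 array with 1 have no test. With no replicates, p-values measure only the spread between these 4 arrays, whose number limits the precision. In the main fit eBayes had infinite prior degrees of freedom, so that spread was pooled over all features. A gene's own spread then had no separate weight in its p-value.

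Members, lists and the naming rule (all members, the 2 brightest of each pathway list, the 2 nearest genes) were chosen with earlier results of these data known. Cdh1, Ptprc and Ly6g were named outside the rule, as were list genes named to show how the members of a list differed. Other steps used numpy 2.4.6, pandas 2.3.3, matplotlib 3.10.9 and Python 3.11.15.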

Additional observations from a re-analysis of the deposited data

Results flagged for a closer look

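For 6 of the 7 members well above background on all 4 arrays, the ALDH-high minus ALDH-low difference had opposite signs at ZT0 and ZT12. The difference between times was not tested, since each time has 1 array of each arm. The ZT12 difference minus the ZT0 difference was -3.89 log2 units for Snai1, -5.27 for Zeb1, -1.54 for Zeb2, 4.54 for Cdh2, 1.51 for Fn1 and 2.54 for S100a4. Opposite signs were the rule on these arrays, found for 84.8% of 19298 genes well above background throughout. A difference of at least 2-fold up at ZT0 and at least 2-fold down at ZT12, as for Snai1 and Zeb1, occurred in 15.9% of them, and the reverse, as for Cdh2, in 17.5%. The signs at ZT12 for Fn1 and S100a4 depend on the scaling.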

How the results depend on the processing

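No paired analysis was possible because each group has a single array, so there are no replicate numbers to match. The additive fit compares arms within a slide, and the fit with array position as a block within a position. No feature was called for ALDH under any alternative, and leaving out an array gave 0 to 0 calls. For time the range was 0 to 1 call, the 1 being without ZT12 ALDH-high. These fits without 1 array have no second term and take the spread of a group's lone array to equal that of the other groups. The number of members at least 2-fold apart was 3 in place of 5 at ZT0 with normexp and quantile normalization, 6 in place of 3 at ZT12 with median scaling, and 5 in place of 3 for time in ALDH-low cells with median scaling. Small means of the additive fit reversed. For ALDH, Snai1 gave -0.17 with median scaling, -0.037 with quantile normalization and -0.038 in the series table, and Zeb2 -0.16 with median scaling and -0.10 with the mean of its probes. For time, Zeb1 gave 0.14, 0.0070 and 0.0019 in the same 3 settings and 0.13 with the mean of its probes, and Cdh2 0.040 with normexp and quantile normalization. Leaving out each array in turn gave ALDH ranges of -1.11 to 1.15 for Snai1, -0.99 to 1.65 for Zeb1, -0.39 to 0.46 for Zeb2 and -0.51 to 2.08 for Cdh2. The time ranges were -1.30 to 0.66 for Snai1, -0.60 to 2.86 for Twist1, -1.49 to 1.48 for Zeb1, -0.33 to 0.48 for Zeb2, -1.84 to 1.21 for Cdh2, -0.085 to 0.32 for Vim, -0.29 to 1.06 for Fn1 and -0.56 to 1.75 for S100a4. The cause was not tested. Twist1 could not be fitted with the filter on all 4 arrays, and its ZT0 difference was -0.65 with normexp and quantile normalization.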
